A study of Mus musculus with 7 samples.

Results

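The genes described here are 27 genes of cholesterol synthesis, sterol uptake and the control of both by SREBP2, out of 35641 genes in the deposited expression table. They were chosen by name, and each name matched 1 row of the table. They comprise 6 enzymes of the mevalonate steps, 2 prenyl diphosphate synthases, 3 enzymes from squalene to lanosterol, 8 enzymes from lanosterol to cholesterol, 4 genes of SREBP2 control and 4 genes of sterol uptake and transport. The sequenced RNA came from lung cells of female C57BL6 mice, labelled as neutrophils and sorted as CD45+ CD11b+ cells low in Ly6C and positive for Ly6G. The 2 groups are named HF (4 libraries) and LF (3 libraries), names that the labels do not spell out, and no age, treatment dose or genotype beyond the strain is given in the sources used here. Both groups share the sort, the strain, the sex and the SMART-Seq library kit, which amplifies complementary DNA from little RNA. The comparison asks how the HF cells differ from the LF cells.

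Animal cells make cholesterol from acetyl-CoA by way of mevalonate, prenyl diphosphates, squalene and lanosterol. The transcription factor SREBP2 switches on most of these enzymes when the endoplasmic reticulum runs low in sterol: its escort SCAP then carries it to the Golgi for cleavage, while INSIG proteins hold SCAP back when sterol is plentiful. Sterol taken up by endocytosis leaves the lysosome through NPC2 and NPC1. Macrophages are known for active sterol handling.

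Whether the libraries match their labels touches every value below. Over 12 neutrophil markers the summed level was 405186 to 492249 normalized counts in HF and 13439 to 14888 in the LF-labelled libraries, and 11 of the 12 were higher in HF. Over 12 monocyte and macrophage markers it was 22705 to 31553 in HF and 117045 to 127267 in the LF-labelled libraries, where 9 of the 12 passed the test as lower in HF and 0 as higher. Ly6g, the gene of the sort marker, stood at 0 to 8.22 in the LF-labelled libraries and at 1301 to 4944 in HF. Over 8 dendritic cell and class II markers, all lower in HF, the summed level was 12362 to 30817 in HF and 72298 to 88401 in the LF-labelled libraries. Of 6 platelet markers 5 were higher in HF, of 9 lymphocyte markers 0 passed, and of 8 tested epithelial and endothelial markers 2 were higher and 3 lower. These libraries thus went against the sort they are labelled with, so they are named by their label throughout, and each direction below is only a difference from them. The part of this difference in cell markers in the results below was not tested, and in bulk RNA fewer cells of a type and less RNA per cell cannot be told apart. Depth was 13943173 to 16599658 recovered reads in HF and 16974428 to 18983351 in the other group.

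Of the 27 genes, 18 were lower in HF, 2 were higher and 7 did not pass the test (limma on log2 normalized counts, adjusted p under 0.05 over all tested genes). All 27 had the mean of at least 10 normalized counts that the test required. Among all 14936 tested genes 28.7% were called lower and 26.2% higher, 55% in all, so calls were common, and the genes described here leaned to the lower side. Their median log2 difference (HF minus LF) was -1.80, beside -0.16 for all tested genes. Of the 27, 19 had every HF library below every LF-labelled library, a pattern that 33.7% of tested genes had, and 3 had every HF library above, beside 28.4%. By the authors' deposited table, 17 of the 27 were lower and 2 higher at an adjusted p under 0.05, where 20.8% and 22.2% of the genes with an adjusted p were called. The balance of calls depends on the scaling between libraries. With equal library totals the median of all tested genes moved by -0.51 and 30.0% of all calls were higher in HF, against 47.7% with the deposited scaling, and of the 27 genes 20 were lower and 1 was higher (beside 42.1% and 18.1% of tested genes). With edgeR on recovered reads 17 were lower and 2 higher, where 24.8% and 26.3% of tested genes were. Leaving out LF6, LF7 or LF8 left 13, 14 and 14 of the 27 lower and 2 higher each time, where 20.2%, 20.6% and 20.4% of the genes tested then were lower and 22.3%, 22.3% and 22.1% higher.

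**Figure D1:**
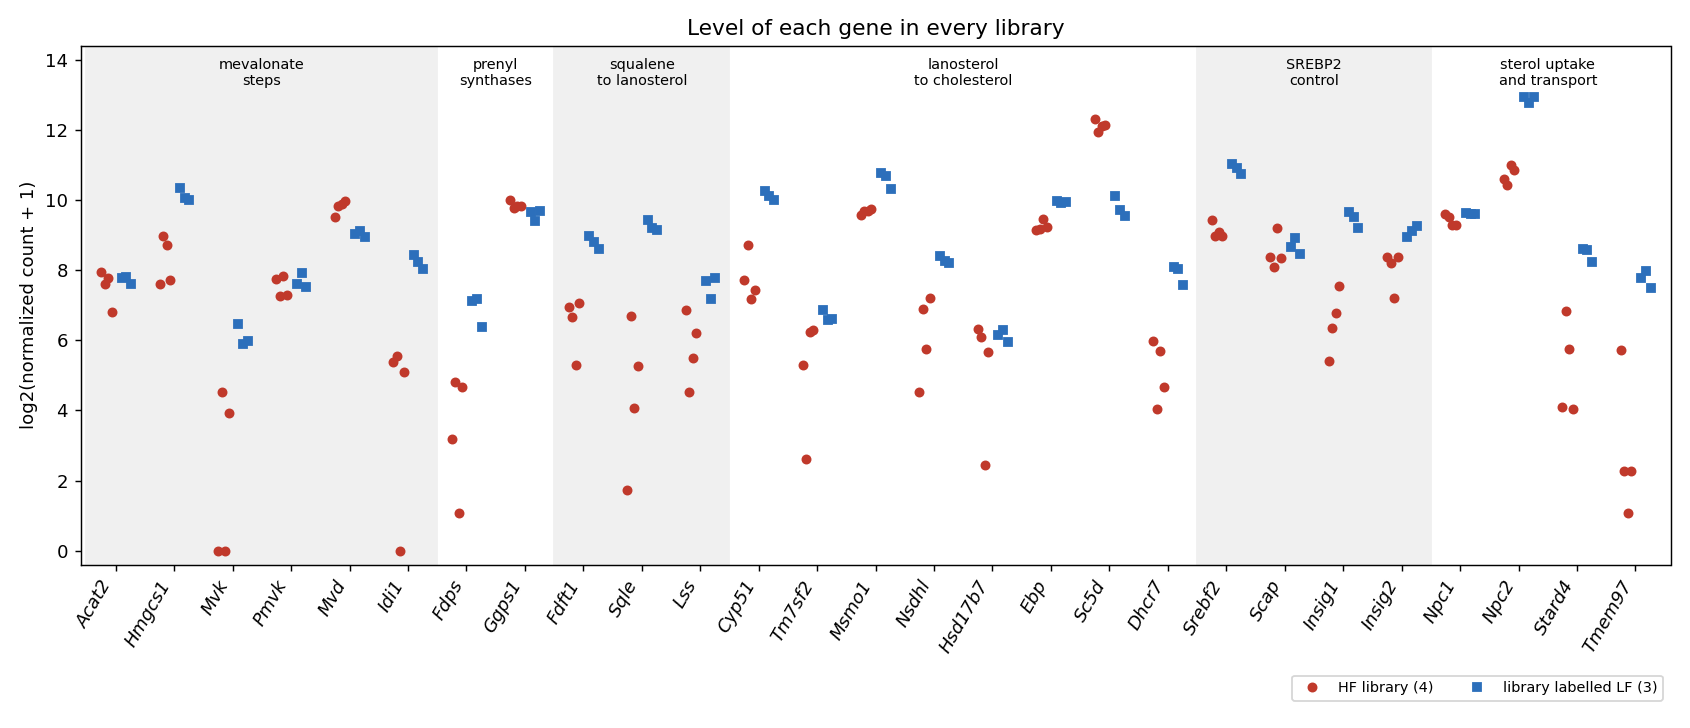
Level of each of the 27 genes as log2(normalized count + 1), with 1 red circle per HF library and 1 blue square per LF-labelled library, ordered by pathway step. Sc5d, Mvd and, by a small margin, Ggps1 (not called) sit higher in every HF library, 19 genes sit lower in every HF library, and the low genes spread widely within HF.

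The upstream sequences of 4 genes are shown because these genes mark both directions: Hmgcs1 and Insig1 were lower in HF, and Mvd and Sc5d were higher. Each is the 250 bases before the RefSeq start (GRCm38.p6), 5′ to 3′ on the gene's strand, for Hmgcs1 chr13:119690101-119690350 (+), Insig1 chr5:28071162-28071411 (+), Mvd chr8:122443423-122443672 (-) and Sc5d chr9:42264301-42264550 (-). Capitals mark matches on either strand to CACNCCAC, a core of the sterol regulatory element that SREBP binds, and to CCAAT, the box of NF-Y, a factor known to act with SREBP.
Hmgcs1: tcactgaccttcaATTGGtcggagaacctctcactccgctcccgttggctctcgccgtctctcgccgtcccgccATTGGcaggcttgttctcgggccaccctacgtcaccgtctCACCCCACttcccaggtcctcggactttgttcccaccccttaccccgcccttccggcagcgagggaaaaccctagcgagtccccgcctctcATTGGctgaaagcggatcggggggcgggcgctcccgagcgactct
Insig1: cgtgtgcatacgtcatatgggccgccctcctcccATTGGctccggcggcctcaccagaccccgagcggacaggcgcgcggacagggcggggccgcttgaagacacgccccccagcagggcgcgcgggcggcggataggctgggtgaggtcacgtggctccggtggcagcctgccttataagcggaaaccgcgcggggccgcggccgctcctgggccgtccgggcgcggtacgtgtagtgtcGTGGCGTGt
Mvd: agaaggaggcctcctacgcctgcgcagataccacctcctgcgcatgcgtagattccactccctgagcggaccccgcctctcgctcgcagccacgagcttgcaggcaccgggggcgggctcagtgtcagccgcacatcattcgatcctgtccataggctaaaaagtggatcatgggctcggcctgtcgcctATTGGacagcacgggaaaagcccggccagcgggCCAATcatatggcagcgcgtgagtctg
Sc5d: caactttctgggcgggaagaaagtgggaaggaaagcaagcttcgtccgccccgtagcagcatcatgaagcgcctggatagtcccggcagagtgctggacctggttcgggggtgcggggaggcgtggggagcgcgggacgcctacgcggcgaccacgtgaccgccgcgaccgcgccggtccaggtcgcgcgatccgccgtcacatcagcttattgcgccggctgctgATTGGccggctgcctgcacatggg
The CACNCCAC core was found once in Hmgcs1 and once in Insig1, and in no window of Mvd or Sc5d. The longer TCACNCCAC, which contains that core, was found in Hmgcs1 alone among the members in the table. CCAAT occurred 3 times in Hmgcs1, once in Insig1, 2 times in Mvd and once in Sc5d. RefSeq windows were at hand for 22 of the 27 genes, all but Fdps, Fdft1, Sqle, Npc1 and Stard4. CCAAT was in a window of 20 of the 22, all but Acat2 and Scap, beside 37.5% of all 27025 genes, and CACNCCAC was in 3 of the 22 (Hmgcs1, Insig1 and Acat2), beside 6.05%. These matches describe letters in short windows and name no binding. CCAAT was present in the windows of genes that were higher, lower and not called. The CACNCCAC core was in no window of the other lower genes at hand, among them Srebf2, Cyp51, Idi1, Lss and Npc2. Acat2, which had it, was not called.

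Genes that make mevalonate and turn it into isoprenoid units went both ways, with 3 of 6 lower, 1 higher and 2 not past the test. Hmgcs1 (ENSMUSG00000093930), the synthase that commits acetyl units to the pathway, stood at 194, 503, 417 and 209 normalized counts in HF replicates 1 to 4 and at 1304, 1068 and 1018 in LF6, LF7 and LF8. No HF library reached the lowest LF-labelled library, and the means were 331 ± 153 (SD, n = 4) and 1130 ± 153 (SD, n = 3), a log2 difference of -1.88 ± 0.35 (SE, limma adjusted p = 0.00246). Idi1, the isomerase that makes the reactive isoprenoid unit, stood at 40.3, 46.3, 0 and 33.4 in HF and at 345, 299 and 263 in the LF-labelled libraries. Its HF mean was 9.93% of the mean of the LF-labelled libraries, on 97 HF reads in all, and the call (limma adjusted p = 0.0243) was lost without LF6, LF7 or LF8 (limma adjusted p = 0.0712, 0.066 and 0.062). The log2 difference of Idi1 was -4.23, and -2.89 without HF replicate 3, where it had 0 reads. The processed pseudogene Gm13502 matches 684 bases of Idi1 with 100% identity and stood at 0 to 1.28 in HF and 11.2 to 14.3 in the LF-labelled libraries, so the Idi1 count is uncertain. Mvk, mevalonate kinase, had 0 reads in HF replicates 1 and 3, 21.9 and 14.1 normalized counts in replicates 2 and 4, and 58.6 to 86.9 in the LF-labelled libraries. It rested on 28 HF reads, and its call (limma adjusted p = 0.0273) was lost without HF replicate 1 (limma adjusted p = 0.0525), without LF6, LF7 or LF8 (0.0917, 0.0738 and 0.0766) and by edgeR and DESeq2 (edgeR adjusted p = 0.0996 with the deposited scaling, DESeq2 adjusted p = 0.0725). The call was also lost with no filter (limma adjusted p = 0.0514), and the authors' deposited table gave Mvk an adjusted p of 0.0571. Its log2 difference of -4.00 ranged over the alternatives from -4.80 without HF replicate 2 to -2.78 with a pseudocount of 5. It was -3.30 without HF replicate 1 or 3.

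Mvd (ENSMUSG00000006517), the decarboxylase that follows the kinases, ran the other way. Its normalized counts were 727, 913, 938 and 1001 in HF replicates 1 to 4 and 519, 552 and 494 in LF6, LF7 and LF8, with no overlap. The log2 difference was 0.77 ± 0.14 (SE, limma adjusted p = 0.00244), and with equal library totals it was 0.25 and no longer passed (limma adjusted p = 0.153). Acat2, a cytosolic thiolase at the head of the pathway, had an HF mean of 193 ± 58.6 (SD, n = 4), against 212 ± 16.01 in the LF-labelled libraries (SD, n = 3), and Pmvk, the second kinase, averaged 188 ± 38.9 and 207 ± 31.1. Neither passed the test (limma adjusted p = 0.608 and 0.613), the groups overlapped in both, and quantile normalization turned both signs (0.35 and 0.40). Pmvk passed as lower with equal library totals (limma adjusted p = 0.0457). Acat2 shares 97.7% of 1477 aligned bases with its neighbour Acat3, which stood at 0 to 24.4 in all 7 libraries, and 445 bases of its transcript match Tcp1 on the other strand, so its count is uncertain.

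Of the prenyl diphosphate synthases, Fdps, which makes farnesyl diphosphate, was lower and Ggps1, which extends it to geranylgeranyl diphosphate, did not pass. Fdps stood at 8.07, 26.999, 1.12 and 24.4 in HF and at 137, 143 and 81.5 in the LF-labelled libraries, a log2 difference of -3.45 ± 0.92 (SE, limma adjusted p = 0.0133). It rested on 48 HF reads and was not called without LF6 or LF7 (limma adjusted p = 0.0519 and 0.0525), and the log2 difference was -2.66 without HF replicate 3. Processed pseudogenes near-identical to Fdps make its count uncertain: Gm3571, with 98.9% identity over 1062 bases, stood at 0 to 16.7 in HF and at 15.8 to 28.5 in the LF-labelled libraries. Its exons also overlap those of Gm43738 on the same strand by 1124 bases (26.7%). Ggps1 was among the steadiest of the 27, at 1028, 882, 903 and 920 in HF and at 817, 680 and 832 in the LF-labelled libraries. Every HF library was above, yet the difference of 0.27 ± 0.12 (SE) did not pass (limma adjusted p = 0.0981). It passed after quantile normalization (limma adjusted p = 0.0284) and was -0.25 with equal library totals, so no direction is given for it.

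All 3 enzymes from squalene to lanosterol were lower in HF. Sqle (ENSMUSG00000022351), squalene epoxidase, a rate-limiting oxygen-using step, stood at 2.31, 103, 15.7 and 37.2 in HF and at 695, 589 and 570 in the LF-labelled libraries. The HF libraries differed widely among themselves and all lay far below the others, and the HF mean was 6.39% of the mean of the LF-labelled libraries. That share was 2.98% without HF replicate 2 and 8.40% without HF replicate 1. The log2 difference of -4.83 ± 1.02 (SE, limma adjusted p = 0.0045) came with 125 HF reads, and was -5.59 and -3.93 without those libraries. Fdft1, squalene synthase, had an HF mean of 98.5 ± 42.4 (SD, n = 4), against 447 ± 53.3 in the LF-labelled libraries (SD, n = 3), a log2 difference of -2.31 ± 0.43 (SE). Its exons overlap those of Ctsb on the other strand by 774 bases, and Ctsb, a lysosomal protease gene, was itself lower in HF (7305 to 12631 against 29895 to 31582), so reads of the 2 genes cannot be told apart there unless strand was used, which is not given in the sources used here. Lss, lanosterol synthase, ranged from 21.9 to 115 in HF and from 143 to 221 in the LF-labelled libraries, and its call (limma adjusted p = 0.0245) was lost without LF6 or LF8 (limma adjusted p = 0.0797 and 0.0853) and after quantile normalization (0.107).

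From lanosterol to cholesterol, 5 of 8 enzymes were lower, Sc5d was higher, and Tm7sf2 and Hsd17b7 did not pass. Cyp51, the lanosterol demethylase, stood at 211, 418, 145 and 171 in HF and at 1234, 1103 and 1016 in the LF-labelled libraries (log2 difference of -2.36 ± 0.34 SE, limma adjusted p = 0.000633). Msmo1 and Nsdhl, which remove methyl groups in the next steps, differed in size: Msmo1 held at 760 to 853 in HF against 1275 to 1759, a log2 difference of -0.92 ± 0.13 (SE), and Nsdhl ranged from 21.9 to 146 in HF against 292 to 336, a log2 difference of -2.20 ± 0.61 (SE). Nsdhl was not called without LF6 (limma adjusted p = 0.0542). Ebp, the sterol isomerase, was lower by a small and even amount, at 565 to 707 in HF and 970 to 1008 in the LF-labelled libraries, a log2 difference of -0.69 ± 0.12 (SE). Dhcr7, the reductase of a last step, ranged from 15.4 to 62.3 in HF and from 190 to 274 in the LF-labelled libraries, a log2 difference of -2.81 ± 0.51 (SE). Tm7sf2, a sterol reductase, stood at 5.14 to 77.0 in HF and 95.3 to 115 in the LF-labelled libraries, without overlap but uneven in HF, and did not pass (limma adjusted p = 0.154). Hsd17b7, a sterol ketoreductase, stood at 78.4, 66.9, 4.48 and 50.03 in HF and 61.0 to 77.3 in the LF-labelled libraries, with overlap (limma adjusted p = 0.377).

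Sc5d (ENSMUSG00000032018), the desaturase just before the Dhcr7 step, had the largest increase of the 27 genes. It stood at 5083, 3924, 4451 and 4568 normalized counts in HF replicates 1 to 4 and at 1118, 836 and 751 in LF6, LF7 and LF8. Every HF library lay far above every LF-labelled library, and the means were 4507 ± 475 (SD, n = 4) and 902 ± 192 (SD, n = 3). The log2 difference was 2.33 ± 0.15 (SE, limma adjusted p = 6.7e-06), and it lay between 1.82 and 2.50 over the alternatives, all of which called it. Normalized counts per kilobase of the longest coding transcript allow a rough comparison between genes. On this scale Sc5d ranked 1 of 27 in HF at 941 and 11 of 27 in the LF-labelled libraries at 188. Ranks and shares on this scale depend on the length chosen. All exons of Msmo1 cover 6144 bases, against the 2044 used, and those of Sc5d 4866, against 4787. Within each library it made up 27.9% to 35.8% of the summed level per kilobase of the 19 enzymes in HF and 4.57% to 5.62% in the LF-labelled libraries, a share that no scaling between libraries can change. Its substrate comes from Ebp and its product goes to Dhcr7, and both of those genes were lower. Mvd made up 13.97% to 18.8% in HF and 7.12% to 8.22% in the LF-labelled libraries, and Sqle stood at 0.0282% to 1.27% in HF and 5.59% to 6.06% in the LF-labelled libraries.

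**Figure D2:**
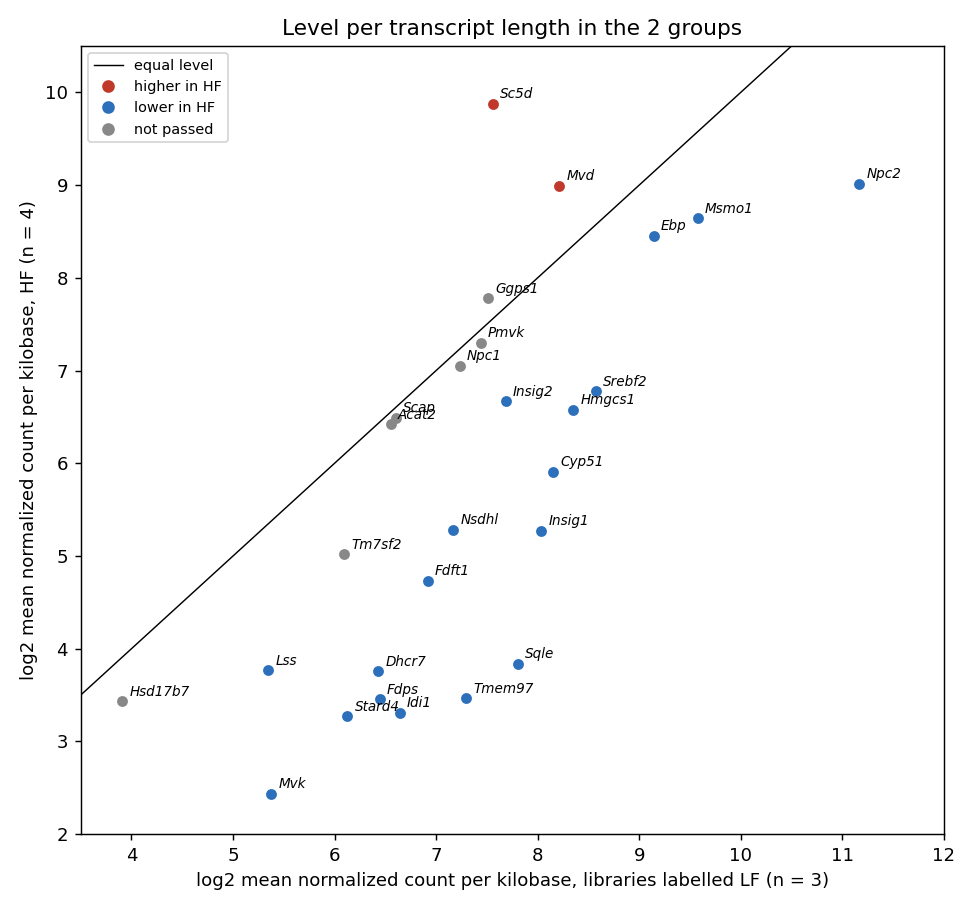
Mean normalized count per kilobase of the longest coding transcript, on log2 axes, in HF (n = 4, vertical) and in the LF-labelled libraries (n = 3, horizontal), coloured by the test. Sc5d (941 against 188), Mvd and, by a small margin, Ggps1 (not called) stand above the line of equal level. Npc2 is the highest gene in the LF-labelled libraries (2296), and Mvk is the lowest in HF (5.42).

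Genes of SREBP2 control were lower for 3 of 4. Srebf2 (ENSMUSG00000022463), which encodes SREBP2, stood at 686, 499, 544 and 503 in HF and at 2111, 1947 and 1730 in the LF-labelled libraries. Both groups were tight and far apart, with a log2 difference of -1.80 ± 0.15 (SE, limma adjusted p = 2.7e-05) that was called under every alternative run. Insig1, the INSIG gene that is itself a target of SREBP, stood at 41.5, 81.0, 110 and 185 in HF and at 802, 736 and 587 in the LF-labelled libraries (log2 difference of -2.93 ± 0.46 SE, limma adjusted p = 0.000932). Insig2, its paralog that does not depend on SREBP in the same way, stood at 330, 292, 146 and 328 in HF and at 496, 552 and 618 in the LF-labelled libraries. The groups did not overlap, but the difference was smaller, at -1.08 ± 0.30 (SE, limma adjusted p = 0.0167), and the call was lost without LF7 or LF8 (limma adjusted p = 0.0521 and 0.0644) and after quantile normalization (0.0672). Scap, the escort, was at 329, 274, 593 and 325 in HF and at 402, 480 and 350 in the LF-labelled libraries, with overlap and no call (limma adjusted p = 0.634), and its difference was 0.24 after quantile normalization.

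Ratios of gene pairs within a library do not depend on the scaling between libraries, and 3 were compared. The log2 ratio of Insig1 to Insig2 was -2.96, -1.84, -0.40 and -0.83 in HF replicates 1 to 4 and 0.69, 0.42 and -0.07 in LF6, LF7 and LF8. Every HF library had less Insig1 for its Insig2 than every LF-labelled library, with means of -1.51 ± 1.14 (SD, n = 4) and 0.35 ± 0.39 (SD, n = 3). The two-sided exact permutation p was 0.0571 (0.0857 adjusted over the 3 ratios). That is the smallest value this form of the test, which doubles the smaller tail, can give for 4 against 3 libraries. The log2 ratio of Npc1 to Npc2 had an HF mean of -1.29 ± 0.41 (SD, n = 4), against -3.27 ± 0.08 in the LF-labelled libraries (SD, n = 3), again with no overlap and an exact permutation p of 0.0571 (0.0857 adjusted). The log2 ratio of Srebf2 to Srebf1, the gene of the related factor for fatty acid genes, was 1.07, 0.69, 0.64 and 0.06 in HF and 1.26, 1.08 and 0.96 in the LF-labelled libraries, and the groups overlapped (exact permutation p = 0.114, 0.114 adjusted). The overlap came from HF replicate 1 alone. The difference of -0.49 was -0.64 without that library (exact permutation p = 0.1) and -0.78 after quantile normalization (exact permutation p = 0.0571). Srebf1 was itself lower in HF, by a log2 difference of -1.31 ± 0.18 (SE, limma adjusted p = 0.000462).

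**Figure D3:**
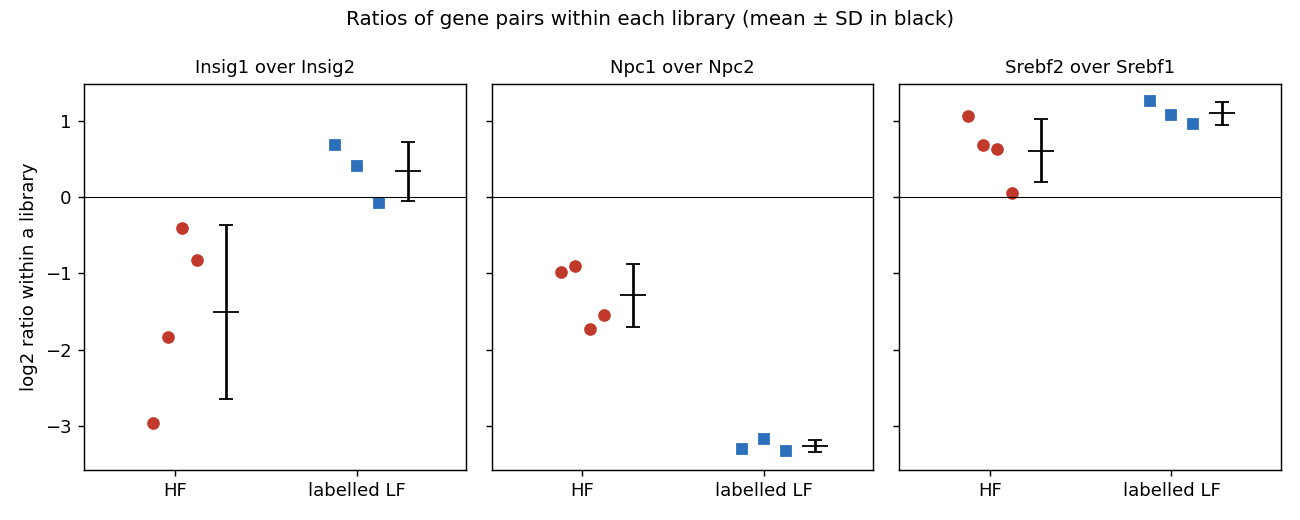
Log2 ratios of 3 gene pairs within each library, for HF (red circles, n = 4) and the LF-labelled libraries (blue squares, n = 3), with the mean ± SD in black. Insig1 over Insig2 and Npc1 over Npc2 separate the groups, and Srebf2 over Srebf1 overlaps through HF replicate 1 alone.

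Of the genes of sterol uptake and transport, 3 of 4 were lower. Npc2 (ENSMUSG00000021242), the soluble lysosomal protein that hands cholesterol to NPC1, stood at 1544, 1374, 2057 and 1843 in HF and at 7837, 7045 and 7841 in the LF-labelled libraries. It had the highest level per kilobase of the 27 in the LF-labelled libraries (2296) and ranked 2 of 27 in HF (517), and the log2 difference was -2.17 ± 0.14 (SE, limma adjusted p = 6.84e-06). Npc1, its membrane partner, had an HF mean of 693 ± 79.0 (SD, n = 4), against 784 ± 9.34 in the LF-labelled libraries (SD, n = 3), which did not pass (limma adjusted p = 0.252). With equal library totals Npc1 did pass as lower, at -0.70 (limma adjusted p = 0.00316). Exons of Npc1 overlap those of Rmc1 on the other strand by 511 bases, and Rmc1 was higher in HF (1115 to 1323 in the LF-labelled libraries against 2395 to 3128), so reads there cannot be told apart without strand. Stard4, a carrier of cholesterol through the cytosol, stood at 16.1, 113, 52.7 and 15.4 in HF and at 388, 382 and 299 in the LF-labelled libraries, a log2 difference of -3.29 ± 0.69 (SE, limma adjusted p = 0.00424).

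Tmem97, a membrane protein of sterol handling that binds NPC1, stood at 51.9, 3.86, 1.12 and 3.85 in HF and at 218, 249 and 181 in the LF-labelled libraries. One HF library thus stood apart from the other HF libraries, yet it too lay below every LF-labelled library, and the log2 difference was -4.91 ± 1.02 (SE, limma adjusted p = 0.00416) on 52 HF reads. The log2 difference was -5.87 without HF replicate 1, -4.32 without HF replicate 3 and -3.81 by edgeR, and it passed each time. Its processed pseudogene Gm5809, with 98.9% identity over 529 bases, stood at 0 to 1.12 in HF and at 3.00 to 5.48 in the LF-labelled libraries, so the count is uncertain. Over 10 alveolar macrophage markers the summed level in HF replicate 1 was 37224, beside 13600 to 15032 in the other HF libraries and 25927 to 28849 in the LF-labelled libraries. Chil3 alone made up 30151 of it in that library and 6508 to 9035 in the other HF libraries, and the other 9 markers summed to 7072 there and to 5997 to 7092 in the rest of HF. That sum hides low genes: Plet1 stood at 435 in HF replicate 1 against 16.8 to 84.7 in the other HF libraries. Krt79 stood at 193 there against 0 to 46.2, and neither gene passed the test between the groups. None of the remaining markers was highest in HF replicate 1, and Pparg and Abcg1 were lowest there. Marco was at 0 in every HF library, 3 of the 8 tested genes of that list were higher in HF and 2 lower, and the part of these markers in the Tmem97 value was not tested.

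**Figure D4:**
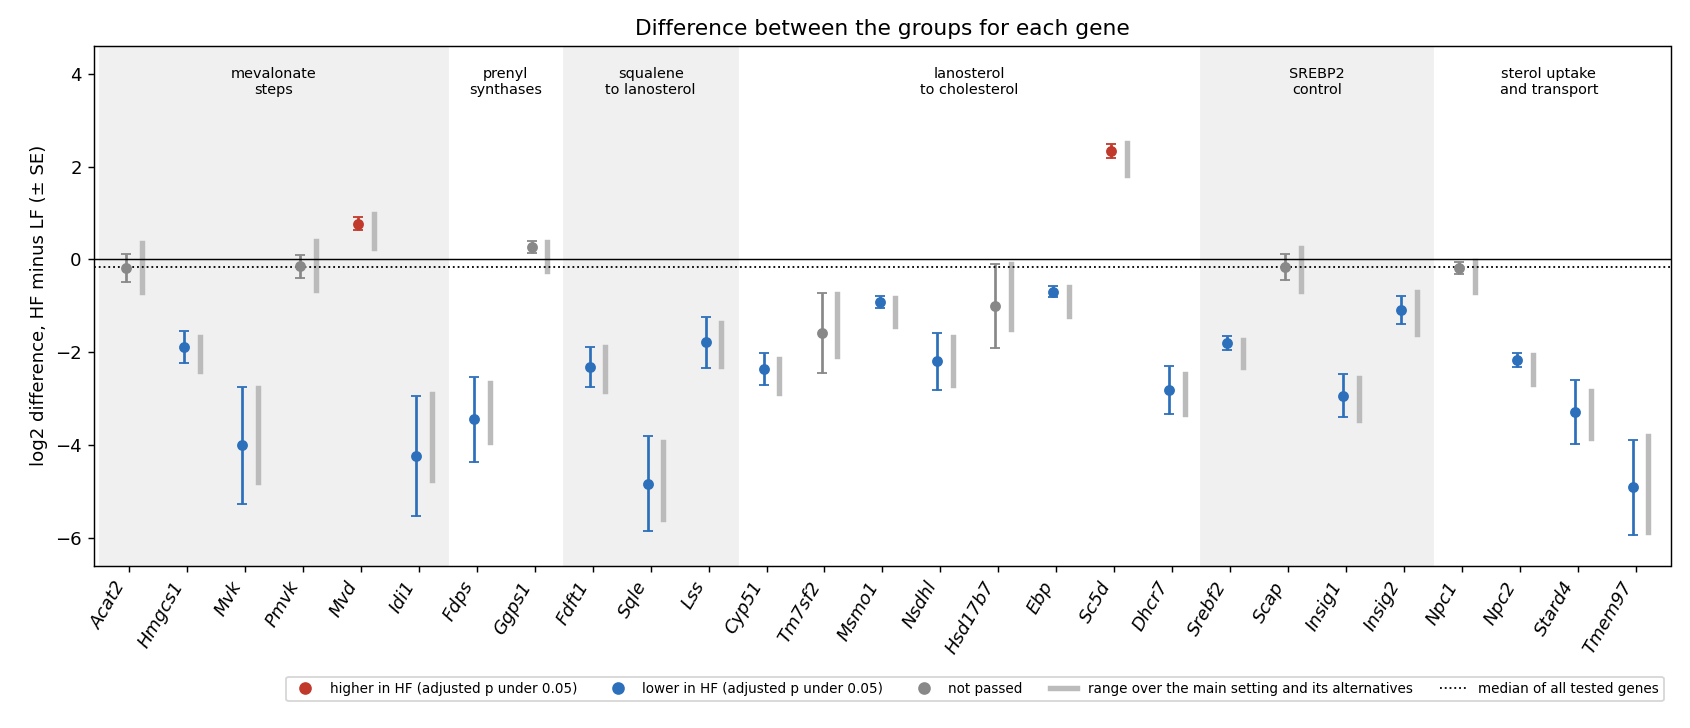
Log2 difference (HF minus LF) ± SE of each of the 27 genes, coloured by the test, with a grey bar for the range over the main setting and its alternatives and a dotted line at the median of all tested genes (-0.16). Bars that cross 0 belong to Acat2, Pmvk, Ggps1 and Scap, none of which passed.

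Spread within groups was uneven. For 24 of the 27 genes the coefficient of variation was higher in HF, with a median of 46.4% in HF and 11.9% in the LF-labelled libraries. The same share over all tested genes was not counted, so this is not given as a trait of the 27. Compared pair by pair on their reads, HF libraries had a median chi-square of 12.2 to 16.2. Pairs of LF-labelled libraries had 2.29 to 3.0. The steadiest in HF was Msmo1 (4.94%) and the least steady were Tmem97 (161%), Mvk (121%) and Sqle (113%). Of the 18 genes called lower, 7 had under 200 reads over all HF libraries, so their HF values are coarse, and 11 had more. Mvk and Idi1 were the 2 genes with 0 reads in at least 1 HF library, and no gene had 0 reads in a LF-labelled library. The genes that passed as lower stood, by group means, at 6.39% to 62.0% of their level in the LF-labelled libraries, while the summed monocyte and macrophage markers stood at 22.1%. Single markers of that list ran from 1.86% (F13a1) to 102% (Adgre1), and Csf1r, the largest in HF, stood at 41.8%. Among HF libraries no single one was lowest throughout. HF replicate 1 was lowest in Sqle and Insig1, replicate 2 in Lss and Dhcr7, and replicate 3 in Fdps and Fdft1. HF replicate 2 was the highest HF library in Hmgcs1, Mvk, Idi1, Fdps, Sqle, Cyp51 and Stard4. In the rest of the 18 lower genes another HF library was highest. HF replicate 2 had the lowest depth (13943173 recovered reads) but reads in the most genes (26409). The other HF libraries had reads in 16743 to 20308 genes. The part of this in the spread was not tested.

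Neighbouring genes of the pathway were examined in 3 lists that were chosen with earlier results of these data known. Of 17 tested genes for SREBP cleavage, escort and sterol-regulated degradation, 3 were higher in HF, 8 lower and 6 not past the test, with a median of -0.46. Over all tested genes 26.2% were higher and 28.7% lower, the background for all 3 lists, and with equal library totals 18.1% and 42.1%. Mbtps1, the Golgi protease that makes the first cut in SREBP, stood at 579 to 750 in HF and 1402 to 1454 in the LF-labelled libraries (log2 difference of -1.17 ± 0.12 SE). Rnf145, a sterol-responsive ubiquitin ligase, was higher, at 3399 to 4254 against 2130 to 2565 (0.71 ± 0.11 SE). With equal library totals the counts of this list were 1 higher and 13 lower. That scaling moved the median of all tested genes by -0.51, so the call of Rnf145 may depend on it.

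Of 20 tested genes for sterol transfer, storage and further sterol enzymes, 8 were higher, 5 lower and 7 not past the test, with a median of -0.24. The balance turned with the scaling, to 6 higher and 9 lower with equal library totals and to 7 and 7 after quantile normalization (26.6% and 26.8% of all tested genes). Lbr, a nuclear envelope protein with sterol reductase activity that overlaps in function with Tm7sf2, stood at 14017 to 19021 in HF and 3320 to 4346 in the LF-labelled libraries, a log2 difference of 2.07 ± 0.12 (SE, limma adjusted p = 4.34e-06). Gramd1a, which moves cholesterol from the plasma membrane to the endoplasmic reticulum, was at 6124 to 7117 against 1584 to 1898, and the oxysterol-binding relative Osbpl2 at 2884 to 3220 against 865 to 1050. The following 2 were picked after their values were seen. Soat2, an enzyme that esterifies cholesterol, stood at 385 to 889 in HF and 16.5 to 26.0 in the LF-labelled libraries, and Cyp27a1, a sterol hydroxylase of macrophages, at 57.6 to 168 and 3748 to 4009.

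Of 16 genes that use prenyl diphosphates, 4 were higher, 7 lower and 5 not past the test, with a median of -0.71. With equal library totals 1 was higher and 10 were lower, and after quantile normalization 4 and 4. Chm, which escorts Rab proteins to be prenylated, was higher at 1543 to 2133 against 889 to 980, and Rce1 and Coq2, which process prenylated proteins and make ubiquinone, were lower at 48.9 to 128 against 326 to 422 and at 270 to 325 against 749 to 847. Fewer genes of this list were called without LF6, LF7 or LF8, where 2, 2 and 3 were lower and 2 were higher each time.

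**Figure D5:**
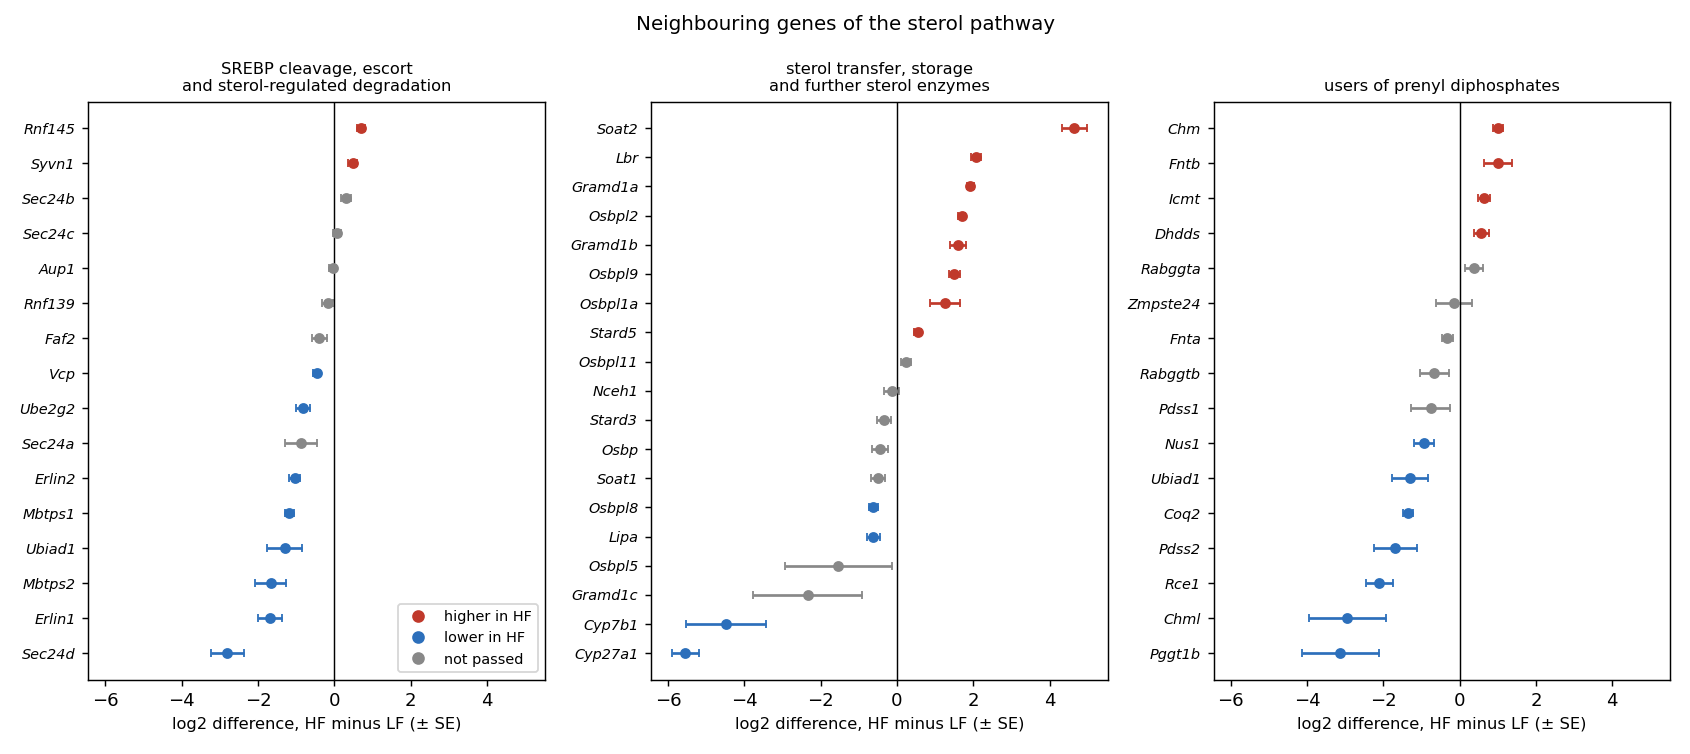
Log2 difference (HF minus LF) ± SE of the tested genes of 3 neighbouring lists that are reported here, coloured by the test. Soat2 (4.65), Lbr (2.07) and Gramd1a (1.93) lie furthest to the right, and Cyp27a1 and Cyp7b1 furthest to the left.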

How the data were processed

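Per the labels, RNA of sorted cells was isolated with TRIzol LS and made into SMART-Seq libraries. Tools named in the submitters' processing notes are DESeq2 1.20.0, featureCounts 1.6.3 and STAR 2.6.1b, without their roles. Build, annotation and strand: not given in the sources used here. The authors deposited 1 table whose library columns hold normalized counts, a signal with no value below 0. In each library 100% of values were, within 0.01, whole multiples of 1 read's value, so whole reads were recovered, and division of gene counts by 1 size factor per library was inferred. Per the file headers, the authors' columns also hold log2 fold changes with errors, test scores and p-values; values from these are credited to the authors' table wherever they appear.

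HF columns carry the numbers of the HF labels. LF columns carry 6, 7 and 8 where the labels have 1 to 3, so they were taken as libraries of the group with no replicate number (0 library columns unmapped). The design text counts 4 HF and 3 LF mice, and nothing beyond that says how they were raised, so a p-value covers only library-to-library spread, which may be technical. No pair of libraries agreed within sampling noise.

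Genes with a mean of at least 10 were tested by limma 3.58.1 (R 4.3.3, mean-variance trend) on log2 values of the normalized count with 1 added, with Benjamini-Hochberg adjustment over all tested genes and a threshold of 0.05. For each gene the fit used 1 estimate of spread for both groups, although most of the 27 genes varied more in HF. The SE and adjusted p therefore assume equal spread. A log2 difference is that of group means on this scale, which understates the change of low genes and can exceed the ratio of means for uneven ones. Alternatives were pseudocounts of 0.5 and 5, a filter at a mean of 50 or none, quantile normalization, equal totals per library, each library left out, and edgeR 4.0.16 (7624 genes called with the deposited scaling) and DESeq2 1.42.0 on recovered reads. The tests were tried on simulated data. Transcript lengths, overlaps and near-identical transcripts (blastn 2.17.0) came from GENCODE M21, which matched all 27 gene IDs; sequences came from RefSeq (GRCm38.p6). Of each neighbouring list, the text names up to 3 genes of lowest p and the gene of highest mean. Members and lists were chosen with earlier results of these data known. Of the neighbouring lists, 2 genes are counted but not reported here by name or value.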

Additional observations from a re-analysis of the deposited data

Results flagged for a closer look

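In 30 sets of 4 HF values (27 genes and 3 ratios), 1 value stood further from its neighbours than Dixon's 95% limit for 4 samples, where chance gives about 1 in 20. Tmem97 in HF replicate 1 stood at 51.9 normalized counts, and its gap to the next library was 0.946 of the range.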

How the results depend on the processing

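No paired analysis was possible because the LF columns, numbered 6 to 8, share no replicate number with HF 1 to 4. Over all alternatives the count of genes called ran from 6432 to 8991 (8211 as reported). Leaving out 1 library at a time gave 6432 to 8470 genes called, 13 to 18 of the 27 genes lower and 2 higher. With equal library totals 1 of the 27 was higher. Of the 18 lower genes, 12 passed under every alternative, and Mvk, Idi1, Fdps, Lss, Nsdhl and Insig2 did not. The same share over all genes called lower was not counted, so whether these 18 are more or less stable than others is not known. The sign turned for Acat2 (0.351 after quantile normalization and -0.329 to 0.0539 with 1 library left out, positive only without HF replicate 4), Ggps1 (-0.251 with equal library totals), Pmvk (0.403 after quantile normalization) and Scap (0.241 after quantile normalization), none of which had passed. The cause was not tested. The 3 ratios kept their sign: Insig1 over Insig2 from -2.22 to -1.37, Npc1 over Npc2 from 1.85 to 2.65 and Srebf2 over Srebf1 from -0.78 to -0.30. Depth limits the 7 lower genes with under 200 HF reads.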
